A study of Mus musculus with 8 samples.

Results

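The genes described here encode the proteins of the mitochondrial ribosome, and were taken by name: every row of the deposited count table whose Entrez identifier maps to a mouse protein-coding symbol beginning with Mrps or Mrpl and a digit, without pseudogenes. That rule used no measured value and gave 78 genes of 27179 identifiers, 29 with a small-subunit symbol (Mrps) and 49 with a large-subunit symbol (Mrpl). Of these, 77 passed the filter on low counts and were tested. The exception was Mrpl36, a large-subunit protein with a bacterial counterpart, which had 0, 0, 3, 0 and 0 counts in the standard-diet libraries and 14, 0 and 7 on the BCAA-free diet. Markers named for the group, Mrps12 and Mrpl12, had at least 224 and 592 counts in each library.

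The RNA came from mouse acute myeloid leukaemia cells of the MLL-AF9 line (genotype WT), which carry GFP, driven per the labels by a "ubiquitin transporter", and luciferase under the β-actin promoter. Leukaemic cells of a terminally ill mouse had been expanded ex vivo with SCF, interleukin 3 and interleukin 6, and were injected into the veins of male recipients aged 8 to 10 weeks, without conditioning, so that all libraries share that cell source. Both groups received the 5+3 regimen, in which 5 daily doses of cytarabine (100 mg/kg) were combined with doxorubicin (3 mg/kg) on days 1 to 3, and living GFP+7AAD- cells were sorted from crushed bone at the time of maximum response. The groups were 5 libraries from mice on the standard amino acid diet (AA 5+3) and 3 from mice on a diet free of the branched-chain amino acids leucine, isoleucine and valine (BCAA 5+3, read as BCAA-free from the series' design text). The labels call the libraries biological replicates without tying them to animals, so p-values measure the spread between these libraries. No library without chemotherapy was analysed here.

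Mitochondrial ribosomes translate the few proteins encoded by mitochondrial DNA, all of them core subunits of the respiratory chain and ATP synthase. Their RNA is made inside the organelle, but every ribosomal protein is encoded in the nucleus, made in the cytosol and imported. The small subunit binds the messenger and decodes it, the large subunit joins the amino acids and is held at the inner membrane where the new chain emerges, and many of the proteins have no counterpart in the bacterial ribosome. Genes of this family are known for sharing promoter letters bound by NRF1, the ETS factor GABP and YY1, and for lying close to, and facing away from, a second gene.

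The promoters of 4 members are shown here, 3 of them with letters that recur across the family. Mrpl33 is shown because it had the smallest p-value among the members, Mrps12 because it marks the group, and Mrps11 with Mrpl46 because those genes, 1 from each subunit, face away from each other across a gap of 30 bp. The windows run from 250 bases before to 50 bases after the RefSeq start site in GRCm38.p6, read 5′ to 3′ on the gene's own strand. Capitals mark CCGGAAG (the core of an ETS site), AAGATGGC (YY1) and GCGCATGC (part of an NRF1 site) or their reverse complements. The windows are chr5:31613701-31614000 (plus strand) for Mrpl33, chr7:28741772-28742071 (minus) for Mrps12, chr7:78782881-78783180 (plus) for Mrps11 and chr7:78783040-78783339 (minus) for Mrpl46.
Mrpl33: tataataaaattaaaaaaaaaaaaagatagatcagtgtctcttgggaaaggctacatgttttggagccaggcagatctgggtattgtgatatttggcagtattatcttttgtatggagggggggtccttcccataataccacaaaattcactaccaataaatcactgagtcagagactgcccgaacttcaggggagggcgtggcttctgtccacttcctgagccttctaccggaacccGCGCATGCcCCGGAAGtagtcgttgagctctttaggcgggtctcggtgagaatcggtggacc
Mrps12: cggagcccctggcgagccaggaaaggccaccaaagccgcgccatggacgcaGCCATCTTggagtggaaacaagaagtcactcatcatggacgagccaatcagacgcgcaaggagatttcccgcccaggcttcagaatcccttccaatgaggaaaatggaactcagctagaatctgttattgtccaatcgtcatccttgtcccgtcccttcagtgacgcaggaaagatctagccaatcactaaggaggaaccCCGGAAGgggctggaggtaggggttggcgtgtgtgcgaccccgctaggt
Mrps11: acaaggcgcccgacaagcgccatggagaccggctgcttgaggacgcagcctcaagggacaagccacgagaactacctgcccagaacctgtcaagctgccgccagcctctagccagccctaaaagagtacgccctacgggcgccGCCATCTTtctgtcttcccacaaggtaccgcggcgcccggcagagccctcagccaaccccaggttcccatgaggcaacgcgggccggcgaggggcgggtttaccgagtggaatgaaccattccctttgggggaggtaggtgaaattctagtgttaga
Mrpl46: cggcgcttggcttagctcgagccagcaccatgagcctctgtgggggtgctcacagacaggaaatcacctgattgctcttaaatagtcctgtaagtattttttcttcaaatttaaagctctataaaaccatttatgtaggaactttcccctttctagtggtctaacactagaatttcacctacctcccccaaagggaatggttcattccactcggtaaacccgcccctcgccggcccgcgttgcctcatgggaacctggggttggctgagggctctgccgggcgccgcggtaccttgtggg
In Mrpl33 the NRF1 letters begin 12 bases before the start site and the ETS letters 3 bases before it. In Mrps12 the YY1 letters lie on the opposite strand, beginning at position -199, and the ETS letters begin at base 2 of the transcript. Mrps11 holds the YY1 letters on the opposite strand at -107. The window of Mrpl46 overlaps that of Mrps11 but ends a few bases short of those letters, and it holds none of the motifs searched.

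RefSeq promoter windows matched 69 of the 78 genes. CCGGAAG, searched on both strands like all the motifs, stood in 25 of the 69 (36.2%), against 18.8% of the promoters of tested genes and 9.12% of all promoters in the table. AAGATGGC stood in 12 (17.4%), against 4.84% and 2.88%. GCGCATGC stood in 8 (11.6%), against 5.41% and 2.80%, and 7 of those 8 were large-subunit genes. The E-box CACGTG (7.25% of members, 10.4% of tested genes) and the cAMP response element TGACGTCA (2.90% and 3.23%) were no more frequent in members than in tested genes. A window may hold several motifs, CCGGAAG and AAGATGGC can share the letters AAG, and 29 of the 69 windows held none. These matches are letters in a window, and no binding was measured here.

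In the series the total counts ran from 14851240 to 38966911 per library. All 10 markers of MLL-AF9 leukaemia and myeloid progenitors (Hoxa9, Meis1, Mpo and Kit among them) were present, with a summed level of 9036 to 11632 CPM (counts scaled to library size) on the standard diet and 7460 to 8714 on the BCAA-free diet. Summed markers of other cells the gate could hold were 7.90 to 15.9 CPM and 26.5 to 107 CPM for B cells (6 genes), 9.50 to 19.0 and 13.7 to 53.5 for T and NK cells (7 genes), 4.39 to 15.1 and 6.56 to 52.1 for erythroid cells (9 genes), 578 to 4642 and 1178 to 4784 for neutrophils (7 genes) and 285 to 397 and 234 to 287 for macrophages (7 genes). They were 24.8 to 46.2 and 41.4 to 62.8 for stroma and endothelium (6 genes) and 0.942 to 2.95 and 2.83 to 5.40 for megakaryocytes (5 genes), and no marker was at 0 in every library. Most of the macrophage sum was Adgre1 and Vcam1, whose groups overlapped. C1qa (2.02 to 3.65 and 4.16 to 6.46 CPM), C1qc and Cd68 were instead higher in every BCAA-free library, and C1qb and Mertk overlapped. By these sums the leukaemia list was lower, and the B cell list higher, in every BCAA-free library. Most of the leukaemia sum was Mpo, at 7327 to 9869 CPM on the standard diet and 5915 to 7226 CPM on the BCAA-free diet. Every other gene of that list, Hoxa9, Meis1 and Kit among them, overlapped between the diets. The part of these marker differences in the results below was not tested.

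One library stood apart in the mitochondrial ribosomal genes. In standard-diet replicate 2, 74 of the 77 tested members lay below their standard-diet mean and 52 had their lowest value of the 8 libraries, against 19.0% of all genes tested. Summed over the members, that library held 2463 CPM, while the other standard-diet libraries held 3105, 3081, 3263 and 3099 CPM and the BCAA-free libraries 3234, 2971 and 3281 CPM. Both subunits were low in it by a like amount, with a mean log2 deviation from the standard-diet mean of -0.29 over the small-subunit genes and -0.31 over the large-subunit genes. The plot of gene deviations by library shows this shift and the smaller one upward in BCAA-free replicate 3 (0.18 and 0.20), which held the highest value in 25 of the 77 members.

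**Figure D1:**
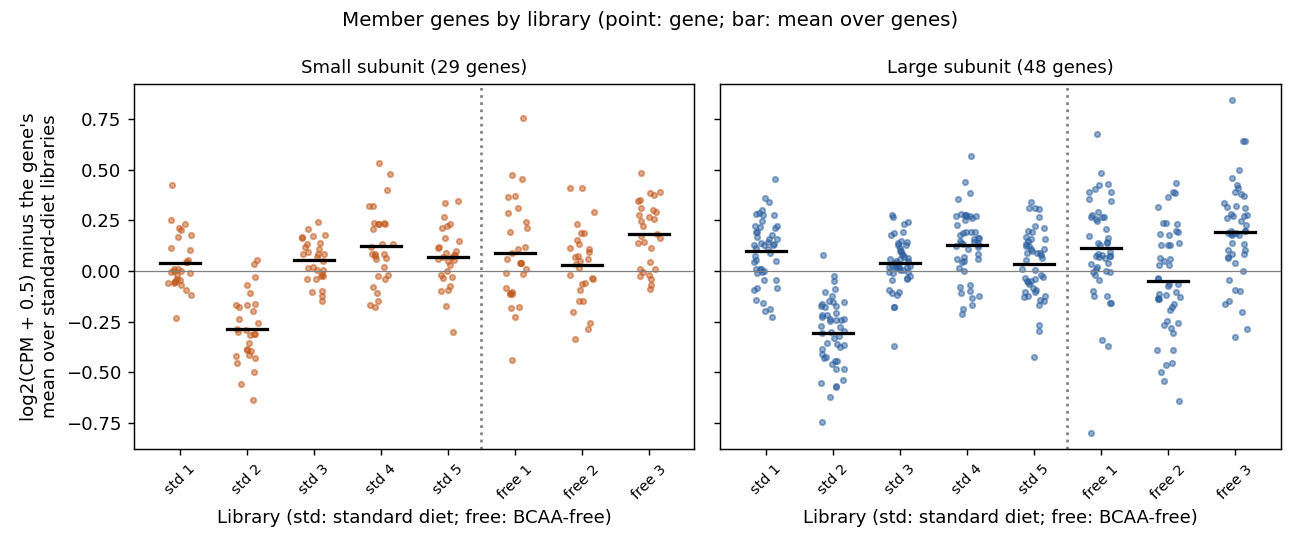
Each point is a tested gene's log2(CPM + 0.5) in a library minus its mean over the 5 standard-diet libraries (std), for the small subunit (29 genes, left) and the large subunit (48 genes, right), with bars at the mean over genes. Standard-diet replicate 2 lies at -0.29 and -0.31 while the other libraries lie between -0.05 and 0.20.

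Transcript length moved with the values of that library. The members are short, with a median transcript of 1280 bp against 2825 bp over all tested genes with a length, and 66.2% of the tested members fall in the shortest of 4 length bins of like size. In standard-diet replicate 2 the genes of the shortest bin had a median log2 deviation of -0.14 and those of the longest bin 0.11, and the cytosolic ribosomal protein genes, also short, had a mean deviation of -0.30. BCAA-free replicate 3 went the other way over length, with 0.17 in the shortest bin and -0.09 in the longest. It also varied with base composition, from -0.27 in the lowest of 4 GC bins to 0.27 in the highest. Standard-diet replicate 1 leaned the same way to a lesser degree, from 0.11 to -0.01 over length and from -0.15 to 0.18 over GC. Standard-diet replicates 3 and 5 ran opposite over GC, from 0.08 to -0.06 and from 0.11 to -0.09. Members were near the middle of the GC range, at a median of 50.4% GC against 50% over all tested genes with a value. Standard-diet replicate 2 also held the lowest summed neutrophil markers, 578 CPM against 1680 to 4642 CPM in the other standard-diet libraries. The part of length or of neutrophil RNA in the low values of standard-diet replicate 2, and of length in the high values of BCAA-free replicate 3, was not tested.

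No mitochondrial ribosomal gene passed the test for a difference between the diets. With edgeR's quasi-likelihood test and Benjamini-Hochberg adjustment over all 13364 genes (threshold 0.05), 0 of 29 small-subunit and 0 of 48 large-subunit members were called, where 0.756% of all genes tested were called (0.217% higher and 0.539% lower on the BCAA-free diet). DESeq2 (3.05% of genes called) and limma-voom (0.479%) also called 0 of the 77. At an unadjusted p under 0.05, 4 members were higher and 1 lower, all with large-subunit symbols, against 6.21% and 7.26% of all genes (13.5% in either direction) and 6.49% of the members. That count was 2 when any of 3 libraries was left out, namely BCAA-free replicate 1, BCAA-free replicate 3 and standard-diet replicate 2. It was 7 without BCAA-free replicate 2, and 4 or 5 without any other library. In these fits 11.0% to 14.7% of all genes had such a p. The count was also 7 with length and GC trends removed (13.4% of all genes) and with upper-quartile factors (13.7%). In bulk RNA, fewer cells of a type and less RNA per cell cannot be told apart.

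The intervals show how large a difference the data leave room for. For 65 of the 77 members the 95% interval of the log2 fold change lay within 1.5-fold either way, against 51.0% of all genes tested. The other 12 reached beyond it on at least 1 side, Mrpl52 farthest upward with an upper bound of 1.03. The median standard error was 0.15 over the members and 0.17 over all tested genes. The plot of fold changes by gene shows that the intervals of all but 5 members cross 0.

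**Figure D2:**
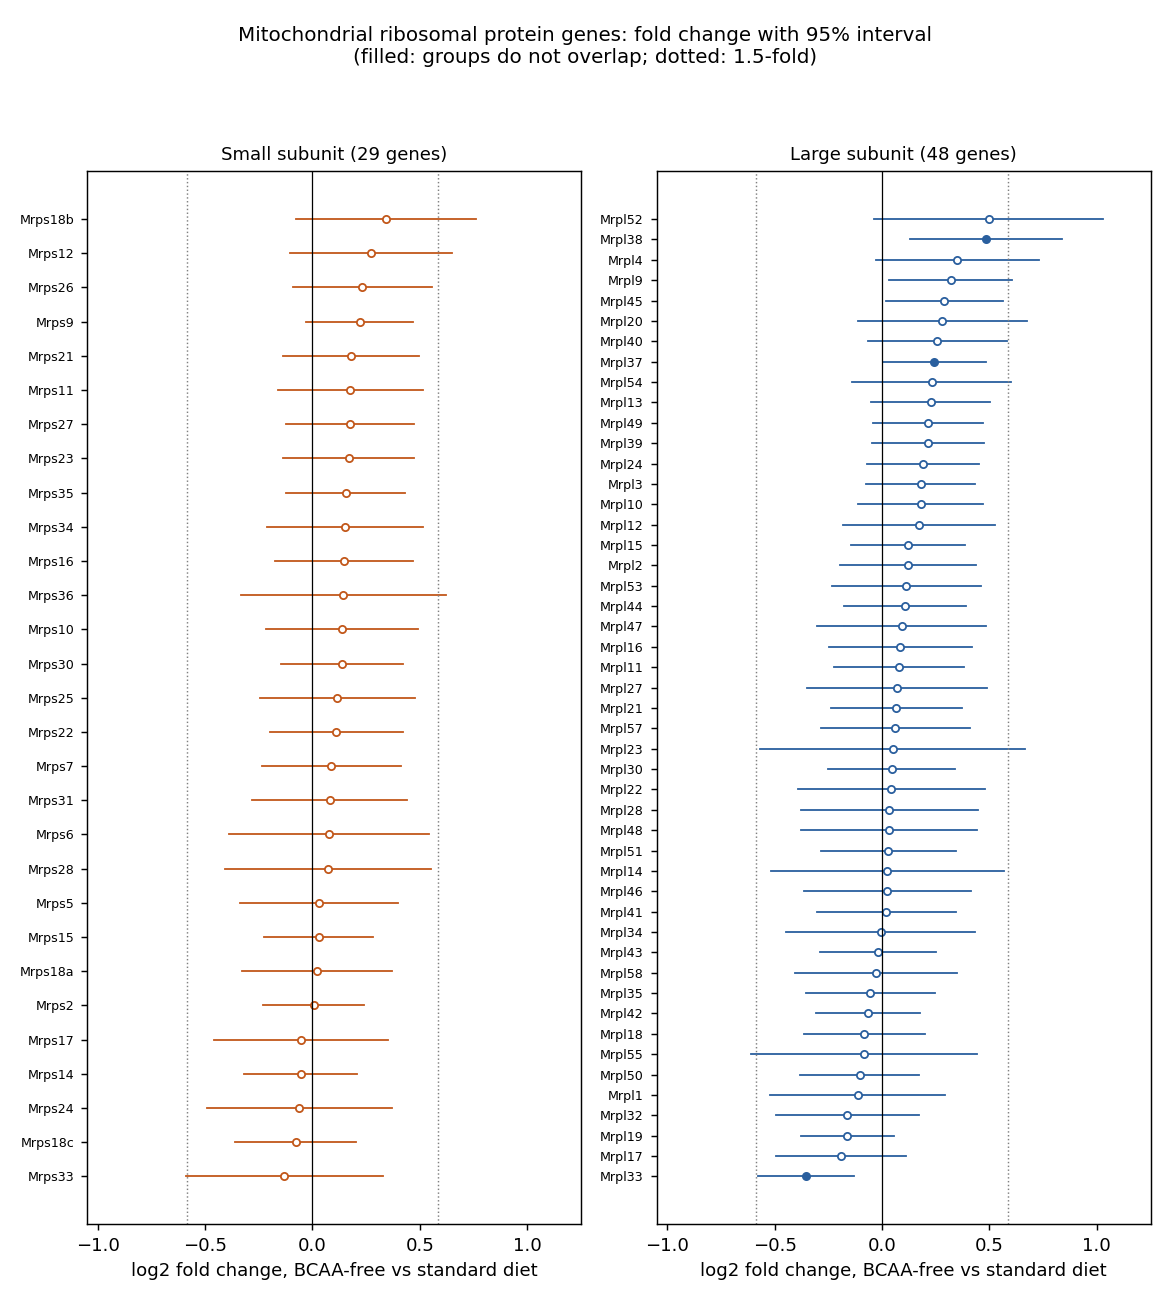
Points are log2 fold changes (BCAA-free against standard diet) and bars their 95% intervals from edgeR for the 29 small-subunit and 48 large-subunit genes tested, with dotted lines at 1.5-fold and filled points where the groups' CPM do not overlap. Estimates run from -0.35 (Mrpl33) to 0.50 (Mrpl52), and filled points mark Mrpl33, Mrpl38 and Mrpl37.

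The estimates leaned upward by a small amount. A positive log2 fold change was found in 24 of 29 small-subunit genes and 35 of 48 large-subunit genes, 59 of 77 in all, against 52.6% of all genes. The median log2 fold change was 0.12 in the small subunit and 0.07 in the large subunit, against 0.02 over all genes tested. The lean rested on single libraries. Without standard-diet replicate 2 there were 43 positive and 34 negative values with a median of 0.01, and without BCAA-free replicate 3 there were 42 and 35 with a median of 0.03. Measured instead as the mean log2 CPM of the members, the BCAA-free libraries exceeded the standard-diet libraries by 0.09, and by 0.02 without standard-diet replicate 2.

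The subunits were then set against each other. The median log2 fold change of the small subunit exceeded that of the large subunit by 0.05. With the subunits assigned by where the protein sits in the ribosome rather than by symbol, the medians were 0.11 and 0.07 and the difference 0.04. Over the fits that each left out 1 library that difference ran from -0.01, without BCAA-free replicate 2, to 0.06. Per library, the mean log2 CPM of the small-subunit genes minus that of the large-subunit genes was -0.43, -0.35, -0.36, -0.38 and -0.34 on the standard diet and -0.39, -0.29 and -0.38 on the BCAA-free diet. The groups overlapped, and the difference between group means was 0.02 log2 units.

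Summed CPM gave a slightly different picture. The small-subunit genes made up 30.1%, 30.8%, 30.7%, 30.7% and 30.96% of the members' summed CPM on the standard diet and 31.1%, 31.6% and 31.05% on the BCAA-free diet. The lowest BCAA-free value, 31.05%, lay above the highest standard-diet value, 30.96%, by less than 0.1 percentage points. Without Mrpl33, a choice made after its values were seen, the share was 31.1% to 32.1% on the standard diet and 31.9% to 32.5% on the BCAA-free diet, and the groups overlapped, with 0.315 percentage points between the group means. The plot of subunit balance gives both measures.

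**Figure D3:**
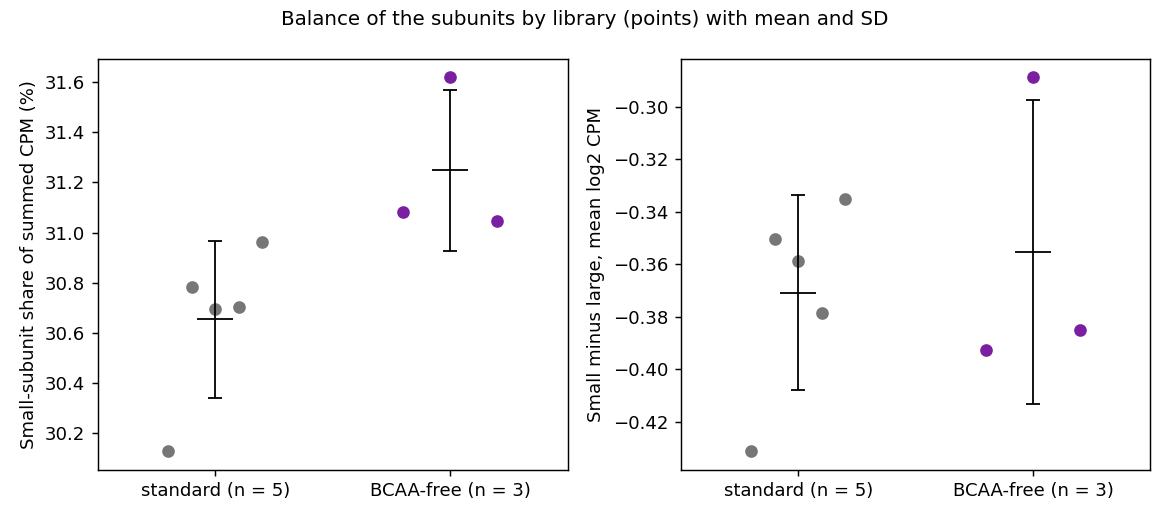
Left, the small-subunit genes' share of the members' summed CPM (%), and right, their mean log2 CPM minus that of the large-subunit genes, by library (points, in replicate order) with mean and SD, for 5 standard-diet and 3 BCAA-free libraries on axes that do not start at 0. The shares lie between 30.1% and 31.6%, and the log2 differences of the groups overlap.

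Mrpl33 had the smallest p-value of the family. It encodes a small large-subunit protein with a bacterial counterpart (Entrez 66845, chromosome 5, 31613951 to 31622644 in GRCm38.p6), and its promoter is the first of those printed above. Its level was 101, 98.7, 90.5, 113 and 109 CPM on the standard diet and 78.9, 78.0 and 83.7 CPM on the BCAA-free diet. All 3 BCAA-free libraries lay below all 5 standard-diet libraries. The means were 103 ± 8.81 CPM (SD, n = 5) and 80.2 ± 3.07 CPM (SD, n = 3), a log2 fold change of -0.35 (SE 0.11, 95% interval -0.58 to -0.13). The unadjusted p was 0.00405 and the adjusted p in edgeR's test 0.147, so it was not called. DESeq2 gave an adjusted p of 0.0523, and over all alternatives the adjusted p was 0.0523 to 0.780. Leaving out each library in turn, the log2 fold change stayed between -0.40 and -0.32. Mrpl33 was the only member below the standard-diet range in this way (4.68% of all genes tested were).

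Mrpl38 was the member with the second smallest p-value, in the opposite direction. It encodes a protein of the central protuberance, the crest of the large subunit that faces the small subunit, and has no bacterial counterpart (Entrez 60441, chromosome 11, 116131817 to 116138868). Its level was 22.2, 14.0, 18.5, 17.2 and 19.8 CPM on the standard diet and 24.5, 23.8 and 28.5 CPM on the BCAA-free diet. The groups did not overlap, with standard-diet replicate 2 the lowest. The log2 fold change was 0.48 (SE 0.17, 95% interval 0.13 to 0.84, adjusted p = 0.213), and it was 0.40 to 0.56 with each library left out in turn. It was 0.32 with length and GC trends removed, the lowest value over the alternatives.

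Mrpl37, which the rule for named genes did not select and which is given because its groups do not overlap, encodes a mitochondria-specific protein of the large subunit. Its level was 47.4, 44.3, 48.3, 49.97 and 45.5 CPM on the standard diet and 57.1, 51.4 and 58.7 CPM on the BCAA-free diet. The log2 fold change was 0.24 (SE 0.11, adjusted p = 0.360). It varied least of all the members between the standard-diet libraries, with a coefficient of variation of 4.82%. Mrpl38 and Mrpl37 were the 2 members whose BCAA-free libraries all exceeded the standard-diet libraries, against 4.17% of all genes.

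Mrpl9 and Mrpl45 complete the members with an unadjusted p under 0.05. Mrpl9, a protein with a bacterial counterpart, was at 54.1, 44.6, 50.6, 44.4 and 57.4 CPM on the standard diet and 70.1, 50.9 and 67.2 CPM on the BCAA-free diet. BCAA-free replicate 2 lay within the standard-diet range, and the log2 fold change was 0.32 (SE 0.14, adjusted p = 0.317). Mrpl45, which anchors the large subunit to the inner membrane near the exit of the peptide tunnel, was at 44.4, 41.5, 58.03, 53.6 and 49.3 CPM on the standard diet and 65.0, 57.8 and 58.3 CPM on the BCAA-free diet. Its groups met at standard-diet replicate 3, and the log2 fold change was 0.29 (SE 0.13, adjusted p = 0.341). The largest estimate of the family was that of Mrpl52, a mitochondria-specific protein of the central protuberance, at 15.3, 8.06, 11.1, 13.3 and 8.89 CPM and 17.9, 9.97 and 20.2 CPM. Its groups overlapped at BCAA-free replicate 2, and its log2 fold change of 0.50 had an SE of 0.25 (adjusted p = 0.406). With length and GC trends removed the largest estimate of any member was 0.32, so that of Mrpl52 was no higher than this.

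**Figure D4:**
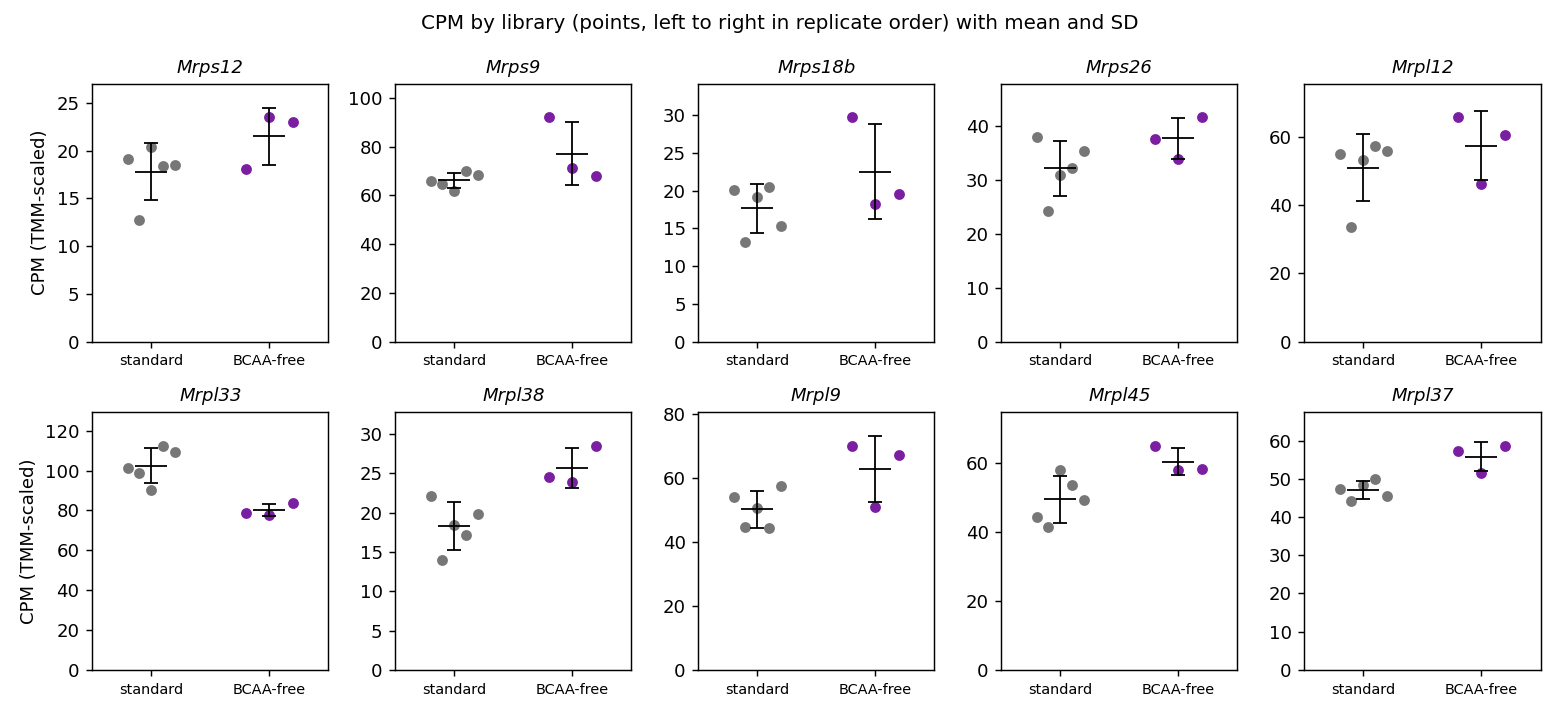
CPM (TMM-scaled, axes from 0) of 10 members by library, with standard-diet replicates 1 to 5 (grey) and BCAA-free replicates 1 to 3 (purple) from left to right and the mean and SD of each group. In Mrpl33, Mrpl38 and Mrpl37 the groups do not overlap, and in the other members they do.

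In the stalk of the large subunit, the flexible arm that recruits translation factors, all 5 genes had positive estimates and none was called. Mrpl12, the repeated protein at the stalk's tip, which is also known to bind the mitochondrial RNA polymerase, was at 54.8, 33.6, 53.1, 57.3 and 55.8 CPM on the standard diet and 65.7, 45.99 and 60.5 CPM on the BCAA-free diet. Standard-diet replicate 2 was far below the other 4, and the groups overlapped. The log2 fold change was 0.17 (SE 0.17, adjusted p = 0.700), and 0.06 to 0.30 with each library left out in turn. Mrpl10, at the base of the stalk, had 0.18 (SE 0.14, adjusted p = 0.605), with standard-diet replicate 5 lowest at 36.1 CPM and the other 4 between 50.6 and 56.8 CPM. Mrpl11, beside it, had 0.08 (SE 0.14, adjusted p = 0.859). The 5 stalk genes had a median of 0.17.

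The exit tunnel is the path by which the new protein leaves the ribosome toward the membrane. The 6 genes listed for it (Mrpl22, Mrpl23, Mrpl24, Mrpl39, Mrpl44 and Mrpl45) had positive estimates, with a median of 0.15. That list leaves out Mrpl47, described below, so the count holds for the listed genes only. Outside the list, Mrpl17 (-0.19) and Mrpl32 (-0.16) were negative and Mrpl47 was positive. The genes listed for the central protuberance were positive in 6 of 8, with a median of 0.08. Mrpl18, which in that crest binds the structural RNA, was at 123, 91.1, 140, 142 and 131 CPM on the standard diet and 130, 110 and 116 CPM on the BCAA-free diet. The groups overlapped (log2 fold change -0.08, SE 0.13, adjusted p = 0.838). Mrpl48 of the same group had 0.03 (SE 0.19, adjusted p = 0.964), and Mrpl47, a protein at the tunnel's exit with a bacterial counterpart, had 0.09 (SE 0.19, adjusted p = 0.878).

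In the small subunit no member had an unadjusted p under 0.05 and no member separated the groups. Mrps12, which lies at the decoding site and whose bacterial counterpart is the protein altered in streptomycin resistance, was at 19.1, 12.7, 20.4, 18.4 and 18.5 CPM on the standard diet and 18.1, 23.5 and 23 CPM on the BCAA-free diet. BCAA-free replicates 2 and 3 exceeded every standard-diet library and replicate 1 did not. The log2 fold change was 0.27 (SE 0.18, adjusted p = 0.528), and 0.18 to 0.38 with each library left out in turn. The 6 genes of the decoding site and mRNA path had a median of 0.09, with 5 positive.

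Mrps9, a protein of the small subunit's head with a bacterial counterpart, had the smallest p-value of the small subunit. Its level was 65.8, 64.7, 61.8, 70.1 and 68.3 CPM on the standard diet, the closest agreement of any small-subunit gene (coefficient of variation 4.88%), and 92.1, 71.2 and 68.1 CPM on the BCAA-free diet. BCAA-free replicate 1 stood well above the rest and replicate 3 within the standard-diet range, so that the log2 fold change of 0.22 (SE 0.12, adjusted p = 0.437) ran from 0.07 to 0.30 with each library left out. Mrps33, a mitochondria-specific head protein, had the lowest estimate of the subunit, -0.13 (SE 0.22, adjusted p = 0.841). Its level was 11.2, 8.79, 11.5, 12.9 and 15 CPM against 8.52, 12.1 and 11.8 CPM. Across the 7 head genes the median was 0.09, with 5 positive. Mrps26, a mitochondria-specific protein, had 0.23 (SE 0.15, adjusted p = 0.535).

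The symbol hides the place or family of some members. Mrps18a, Mrps18b and Mrps18c encode related proteins of a single bacterial family. Mrps18c and Mrps18b sit in the small subunit, while Mrps18a sits in the large one. Mrps18b had the largest estimate of the small subunit, 0.34 (SE 0.20, adjusted p = 0.473), from 20.1, 13.2, 19.1, 20.5 and 15.4 CPM and 29.7, 18.3 and 19.5 CPM. It was set by BCAA-free replicate 1, without which it was 0.10. Mrps18a had 0.02 (SE 0.17, adjusted p = 0.971) and Mrps18c -0.08 (SE 0.13, adjusted p = 0.847), so the related genes did not share a direction in these estimates. Their differences from one another were not tested.

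Mrps30 also sits in the large subunit despite its symbol, and had 0.14 (SE 0.13, adjusted p = 0.707), from 50.1, 40.3, 52.7, 54.6 and 52.5 CPM and 64.4, 51.9 and 48.8 CPM. Mrps36 is now known as a subunit of the 2-oxoglutarate dehydrogenase complex rather than of the ribosome, and had 0.14 (SE 0.23, adjusted p = 0.830). Its level was among the lowest of the tested members, at 6.66 to 10.0 CPM, though Mrpl14 was lower in BCAA-free replicate 1 (5.97 CPM, 89 counts). Grouped by origin, the 45 tested members with a bacterial counterpart had a median of 0.07 with 32 positive, and the 31 mitochondria-specific members a median of 0.12 with 26 positive. In that grouping Mrps18c counted as the bacterial counterpart, Mrps18a and Mrps18b counted as mitochondria-specific, and Mrps36 was in neither group. The groups of members by origin were not tested against each other.

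Levels per transcript length differed far more between members than any member differed between diets. Per kilobase of transcript, the median level over the 8 libraries was 20.0 CPM in the small subunit, with a 12-fold span from 5.91 to 71.0, and 27.01 CPM in the large subunit, with a 27.3-fold span from 7.20 to 197. Mrpl33 was highest, at 215 ± 18.4 CPM per kilobase on the standard diet (SD, n = 5), above Mrpl18 at 103 ± 16.9. In the small subunit Mrps21, a short protein with a bacterial counterpart, led with 67.6 ± 10.2 and Mrps18c followed with 62.7 ± 7.64, which do not differ beyond their spread. At the low end were Mrps25 (5.74 ± 1.28), a mitochondria-specific protein, Mrps5 (6.45 ± 1.00), which lines the messenger's entry, Mrpl48 (7.14 ± 1.31) and Mrpl47 (7.73 ± 1.92), and no neighbours among these differed beyond their spread. The ribosome holds most of these proteins in equal number, but the RNA levels span more than a factor of 10 in each subunit.

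**Figure D5:**
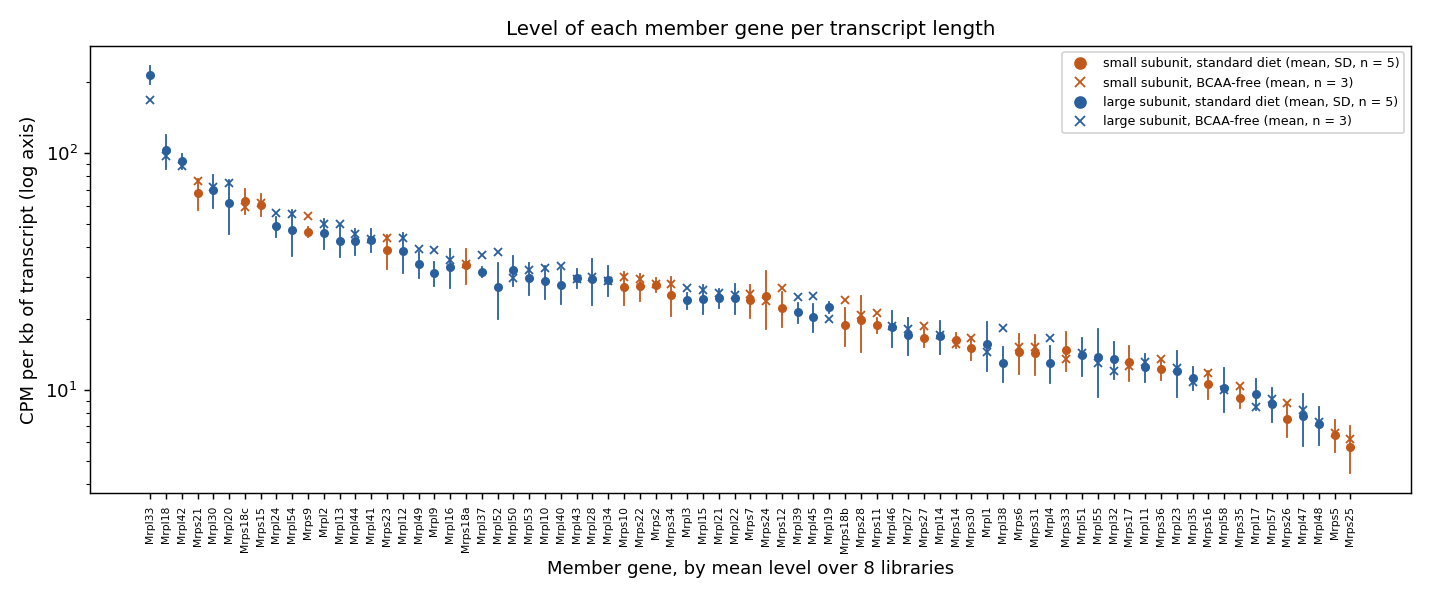
Level per kilobase of transcript (CPM per kb, log axis) for each tested member in order of its mean over 8 libraries, as the mean and SD of 5 standard-diet libraries (circles) and the mean of 3 BCAA-free libraries (crosses), by subunit colour. The levels run from 197 for Mrpl33 to 5.91 for Mrps25, and circles and crosses lie close together for nearly all genes.

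The length used decides some of these levels. With the union of exons in place of the median transcript, the medians were 19.6 and 23.6 CPM per kilobase, and the level was 41.7 instead of 61.5 for Mrps18c and 7.47 instead of 14.3 for Mrps33. Exons of 15 members overlap another gene, nearly always on the other strand. The strand setting of the counting is not given, so reads there may be mixed between the genes or left out of both. The share overlapped was 58.2% for Mrps25 (with Nr2c2), 39.2% for Mrpl19 (with Gcfc2), 38.2% for Mrpl24, 27.5% for Mrpl43 (with Twnk) and 26.98% for Mrpl13 (with Mtbp). Mrpl33, Mrpl38, Mrpl37, Mrpl45, Mrpl52, Mrpl12, Mrps12 and Mrps9 overlap none. Over the 63 members with no overlap the median log2 fold change was again 0.08, with 48 positive.

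Spread between the standard-diet libraries was alike in both subunits, with a median coefficient of variation of 15.9% in the small and 15.6% in the large. The most variable members were Mrps24 (27.3%), a small-subunit protein of the mRNA path, and Mrpl55 (31.9%) in the large subunit.

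Shared start regions were common in this family. A divergent neighbour with a start site within 1000 bp was found for 21 of the 78 genes (26.9%), against 7.10% of all protein-coding genes and 10.9% of those tested. Mrpl46 and Mrps11 are each other's neighbour, on either side of the gap within the promoters printed above. Mrps11, a small-subunit protein, was at 21.2, 18.8, 20.0, 17.8 and 20.98 CPM on the standard diet and 18.2, 26.3 and 22.5 CPM on the BCAA-free diet. Mrpl46, of the central protuberance, was at 22.99, 14.5, 22.7, 20.8 and 23.1 CPM and 22.6, 16.8 and 24.1 CPM. BCAA-free replicate 2 was thus the highest library for Mrps11 and the lowest of its group for Mrpl46, and the log2 fold changes were 0.18 (SE 0.16) and 0.02 (SE 0.18). This pair was chosen for its position.

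A few of the other neighbours work in protein synthesis or breakdown, and are given here for that function. Mrps12 lies 182 bp from Sars2, the mitochondrial seryl-tRNA synthetase, which had a log2 fold change of -0.02 (SE 0.20) beside the 0.27 of Mrps12. Mrpl49 lies 59 bp from Fau, which encodes a cytosolic ribosomal protein, and the values were 0.21 (SE 0.12) and 0.26 (SE 0.11). Mrpl32 lies 75 bp from Psma2, a proteasome subunit, with -0.16 (SE 0.16) and 0.10 (SE 0.13). Members with a divergent neighbour had a median of 0.12 and the others 0.08, and no tested neighbour was called, the smallest adjusted p being 0.340 for Fau.

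Mitochondrial ribosomal proteins that carry other symbols were counted apart. None of the 5 (Dap3, Ptcd3, Chchd1, Aurkaip1 and Gadd45gip1) was called, and 3 estimates were positive, with a median of 0.00. Ptcd3, a small-subunit protein of the pentatricopeptide repeat kind, was at 115, 108, 125, 117 and 135 CPM on the standard diet and 108, 105 and 91.7 CPM on the BCAA-free diet. The groups touch without overlapping, where 4.68% of all genes tested were lower in this way. The log2 fold change was -0.24 (SE 0.11, unadjusted p = 0.0366, adjusted p = 0.333 in edgeR's test). Gadd45gip1, a large-subunit protein, had 0.29 (SE 0.17, adjusted p = 0.476), and Dap3, a GTP-binding protein of the small subunit, 0.10 (SE 0.10, adjusted p = 0.715).

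The machinery around the ribosome was not called either. Of 34 listed assembly factors, which fold and modify the ribosomal RNA and join the proteins to it, 33 were tested and 0 called, with 22 positive and a median of 0.09. The smallest p-values there were those of Mettl17 (0.34, SE 0.17, adjusted p = 0.405), a factor of small-subunit assembly, Ngrn (0.31, SE 0.16, adjusted p = 0.406) and Rpusd4 (0.26, SE 0.14, adjusted p = 0.432), both needed for the large subunit's RNA. Of 20 translation factors, 18 were tested and 0 called, with 11 positive and a median of 0.03. Mtfmt, which formylates the initiator methionine, was at 18.6, 18.8, 16.9, 19.5 and 21.4 CPM on the standard diet and 24.3, 22.9 and 24.2 CPM on the BCAA-free diet. Its groups did not overlap (log2 fold change 0.32, SE 0.15, adjusted p = 0.345), where 4.17% of all genes tested were higher in this way. The release factor Mtrf1l had 0.21 (SE 0.15, adjusted p = 0.579) and the membrane insertase Oxa1l 0.17 (SE 0.13, adjusted p = 0.597).

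Of 29 genes for the transcription and copying of mitochondrial DNA and their regulators, 27 were tested and 0 called, with 14 positive and a median of 0.01. Polrmt, the mitochondrial RNA polymerase to which Mrpl12 binds, was at 28.4, 22.2, 23.9, 22.4 and 16.1 CPM on the standard diet and 30.8, 25.5 and 33.97 CPM on the BCAA-free diet. The groups overlapped at standard-diet replicate 1 (log2 fold change 0.41, SE 0.17, unadjusted p = 0.0316, adjusted p = 0.319). Tfb2m, its initiation factor, was at 13.5, 21.05, 21.7, 18.5 and 21.1 CPM and 14.9, 13.9 and 15.7 CPM. Here standard-diet replicate 1 was the lowest library of all, and the log2 fold change was -0.37 (SE 0.18, adjusted p = 0.405). Hsd17b10, a subunit of the enzyme that trims mitochondrial tRNAs, had 0.22 (SE 0.14, adjusted p = 0.520).

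Cytosolic ribosomal proteins, the nearest family in function, give a scale for these values. Of 81 tested, 0 were called, against 0.756% of all genes, and 79 had a positive estimate (97.5%, against 52.6%). The median log2 fold change was 0.22. In edgeR's test 16 had an unadjusted p under 0.05 (19.8%), all higher, against 6.21% of all genes higher and 7.26% lower. The groups did not overlap in 7 (8.64%), all higher, against 4.17% of all genes higher and 4.68% lower. Their mean log2 CPM exceeded the standard-diet mean by 0.13, 0.12 and 0.41 in BCAA-free replicates 1 to 3, where the mitochondrial members were at 0.10, -0.02 and 0.19. In standard-diet replicates 1 to 5 the cytosolic genes were at 0.15, -0.30, -0.02, 0.11 and 0.06. Standard-diet replicate 1 thus lay above BCAA-free replicates 1 and 2, and the groups overlapped. Without standard-diet replicate 2 the difference between the diets was 0.15 in the cytosolic genes and 0.02 in the mitochondrial ones. That 0.15 includes BCAA-free replicate 3, the highest library. The difference between the families was not tested.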

How the data were processed

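Polyadenylated RNA of sorted leukaemia cells was read as pairs of 38 bp from libraries made with the Kapa mRNA HyperPrep kit, per the labels' protocols. The authors deposited 1 table of raw, unnormalized counts per Entrez gene for 8 libraries. The submitters' processing notes name mm10, featureCounts and Cell Ranger. The aligner was not given in the sources used here, nor were the strand setting, tool versions and the treatment of reads with several locations. Groups came from sample titles.

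Symbols matched 25275 of 27179 identifiers through the GRCm38.p6 gene table of RefSeq. The other 1904 stayed in the tests and held 1.71% to 4.43% of a library's counts. The test was edgeR 4.0.16 (R 4.3.3) with TMM factors, the default filter (minimum count 10, minimum total 15), robust quasi-likelihood fits on 8 libraries with diet as the term, and Benjamini-Hochberg adjustment over 13364 genes. CPM use TMM-scaled library sizes, and the SE is the log2 fold change over the square root of F. The procedure was also run on simulated counts, drawn for each gene independently. That run had no shift shared by many genes of a library, so it cannot show how the test behaves under such shifts. Transcript lengths and divergent neighbours (start sites within 1000 bp) came from GENCODE M21 basic models, the length being the median of transcripts paired with RefSeq. Promoters came from RefSeq. Counts of libraries of 1 group differed beyond sampling noise in every pair (chi-square over degrees of freedom 20.5 to 67.6), and each library counted as 1 replicate.

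Members and gene lists were chosen with earlier results of these data known, so lists are given as counts and medians with no test. The rule for named genes took Mrps12 and Mrpl12, the 4 smallest p-values, the largest and smallest fold change and the 2 highest and 2 lowest levels per kilobase in each subunit, Mrps18a, Mrps18b, Mrps18c, Mrps30, Mrps36, Mrpl10 and Mrpl11, every called gene, and the 3 smallest p-values of each other list. Alternatives were other size factors, no filter, DESeq2 1.42.0, limma-voom (limma 3.58.1), a non-robust fit, the replicate number as a block, each library left out, standard-diet replicate 1 and BCAA-free replicate 3 left out together, length and GC trends removed (89.4% of tested genes had both), and subunits assigned by structure. Exon-union lengths and the share without Mrpl33 were added after seeing the data. A protein sequence table was not used here.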

Additional observations from a re-analysis of the deposited data

Results flagged for a closer look

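Standard-diet replicate 2 was far below the other 4 standard-diet libraries in each measure of the family's level, though not in the balance of the subunits. Its mean log2 CPM was 4.51 over the small-subunit genes, where the other 4 lay between 4.84 and 4.92, and 4.86 over the large-subunit genes, where they lay between 5.20 and 5.30. Its summed level over all members was 2463 CPM. Both named markers were low in it, Mrpl12 at 33.6 CPM and Mrps12 at 12.7 CPM. In each case the gap to the nearest library, divided by the range of the group, exceeded Dixon's 95% critical value for 5 samples. Taken gene by gene, 7 of 77 members passed that value, Mrpl12, Mrpl15, Mrpl16, Mrpl21, Mrpl35, Mrpl46 and Mrps12, all of them low in this library. Chance alone gives about 1 in 20 groups past it, and the members of a library are not independent. The 2 measures of subunit balance did not pass it. The small-subunit share (30.8%) and the small-minus-large difference (-0.35) lay within the range of the other 4 libraries. The library also held the lowest summed neutrophil markers of its group, 578 CPM against 1680 to 4642 CPM. The part of this, or of transcript length, in the low values was not tested.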

How the results depend on the processing

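No mitochondrial ribosomal gene was called under any of the 17 alternatives, nor any gene of the other lists. Of 391 recomputed fold changes of the 23 named members, 370 kept their direction and 21, in 9 genes, changed sign, all far from the threshold. Over all genes, 101 were called, against 237 with no filter, 376 by DESeq2, 64 by limma-voom, and 32 (without BCAA-free replicate 2) to 134 (without BCAA-free replicate 3) with each library left out. The small-minus-large median ran from -0.0131 to 0.0644 over those fits.

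Same-numbered libraries did not deviate together (correlations -0.08, -0.05 and -0.30), so the numbers were not taken as pairs. With the replicate block 0 genes were called, 70 members were positive and 7 negative, and Mrpl18 (0.0220), Mrps18c (0.0240) and Mrps33 (0.0332) changed sign.

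Other changes of sign were Mrpl48 in limma-voom (-0.00480), Mrps18a with trends removed (-0.12), and, without standard-diet replicate 1 and BCAA-free replicate 3 together, Mrpl11 (-0.0617), Mrpl48 (-0.0197), Mrps18a (-0.14), Mrps36 (-0.0287) and Mrps5 (-0.11). With each library left out the range was -0.0144 to 0.19 for Mrpl47, -0.0953 to 0.24 for Mrpl48, -0.12 to 0.0911 for Mrps18a, -0.16 to 0.18 for Mrps5, -0.23 to 0.0105 for Mrps33 and -0.0306 to 0.16 for Mrpl11. The cause was not tested.

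With trends removed 47 members were positive and 30 negative, against 59 and 18, and with upper-quartile factors 62 and 15. Depth of 14851240 counts or more gave each tested member at least 89 counts per library. The share of counting error and of the spread between libraries in the width of the intervals was not separated.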
